A study of Mus musculus with 24 samples.

Results

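The calcium/calmodulin-dependent kinases examined here were 10 of the 47069 genes in the count files: Pnck, Camk1, Camk1d, Camk1g, Camk2b, Camk2d, Camk2g, Camk4, Camkk1 and Camkk2. They were listed by name, and Pnck was selected on its CPM (counts per M of the library), already known to be higher in the mutants of these data than in their controls. The mutant comparisons and the novelty effect are named in that choice, so the values of Pnck and its relatives in them are a description, with no test read from them. All 10 genes passed the low-count filter in every fit, with 528 to 80669 counts per library for any of them.

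The study measured hippocampal RNA of male mice aged 2 to 4 months that lack Kdm5c, an X-linked gene for a histone H3 lysine demethylase. There were 6 groups of 3 libraries, and each library was a pool of tissue from 3 mice. Wild-type mice and mice with lifelong loss of the gene, labelled Kdm5c -/- (KO) and described as Kdm5c-/y, were either untreated or explored an unfamiliar box with toys for 1 h. These 4 groups were of mixed C57/129 F1 background and read as single reads of 50 nt on 1 flowcell. The inducible line, labelled Kdm5c -/- (ifKO), carried a floxed Kdm5c and CaMKIIα-creERT2, whose promoter drives a tamoxifen-dependent Cre in excitatory forebrain neurons. It and its group of control mice were not exposed to novelty. They were of C57BL/6J background, and read as paired reads of 75 nt on another flowcell. The sources used here do not say if Cre or tamoxifen was also given to the control mice. Line, background, read layout and flowcell cannot be told apart.

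Calcium entering an active neuron binds calmodulin, and calcium/calmodulin switches these kinases on. CaMKK1 and CaMKK2, encoded by Camkk1 and Camkk2, phosphorylate and so activate the CaMKI enzymes and CaMKIV, which in turn act on transcription factors such as CREB and on the growth of dendrites and axons. CaMKII forms large holoenzymes of mixed subunits, is abundant at hippocampal synapses, and is central to long-term potentiation and memory. Pnck encodes the beta form of CaMKI, Camk1 the alpha, Camk1d the delta and Camk1g the gamma form.

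Counts in genes were 16.0 to 45.6 M per library. Neuronal markers were present as the hippocampus label requires: summed over 5 genes of excitatory neurons they came to 2013 to 2727 CPM, and over 5 of dentate granule cells to 224 to 347 CPM. Kdm5c itself was counted over the whole gene (74.2 to 76.4 CPM in untreated wild type, 75.4 to 76.3 in untreated KO, 62.1 to 67.5 in control and 63.6 to 69.0 in ifKO), a count that does not check the deletion. After novelty it was 90.2 to 100.3 CPM in wild type and 77.8 to 86.5 in KO. It rose with novelty in wild type by 0.34 ± 0.06 on the log2 scale (edgeR adjusted p = 0.0388), and its KO minus wild-type difference after novelty was -0.24 ± 0.06 (edgeR adjusted p = 0.108). After novelty, library 1 of wild type and library 2 of KO stood apart: their counts differed from those of their groupmates by a chi-square per degree of freedom of 19.5 to 40.03, against 3.18 to 9.21 for every other pair within a group. Of 14 immediate early genes, which neuronal activity induces, 11 rose with novelty averaged over both genotypes, where 1.35% of all genes tested passed, among them Egr1 by 0.86 ± 0.14 on the log2 scale (edgeR adjusted p = 0.00859). Taken by genotype, 6 of the 14 rose in wild type, where 0.384% of all genes passed, and 2 in KO, where 0.110% did. In untreated KO against untreated wild type 0 of the 14 passed, while all 14 had a log2 fold change above 0 (median 0.53), and in the interaction 0 passed and 1 was above 0 (median -0.57). The untreated pools varied: Egr1 was at 71.8, 128 and 113 CPM in wild type and 191, 104 and 159 in KO, which overlapped. The interaction uses the same untreated libraries, so nothing is read from either median. The p-values here measure the spread between pools of mice.

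The CaMKI genes resemble each other in sequence, which bears on whether reads of one could be counted for another. The coding sequence of Pnck (1029 bases, GENCODE M21) was 72.4% identical to that of Camk1, 67.4% to Camk1d and 70.4% to Camk1g over the aligned bases. The stretch of 60 coding bases in which the other CaMKI genes were most like Pnck is shown 5′ to 3′, with capitals at each base that differs from Pnck. In all 4 genes it crosses an exon junction after base 44, and all 4 lie on the minus strand of GRCm38.
Pnck: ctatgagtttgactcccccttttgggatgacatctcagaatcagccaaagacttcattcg
Camk1: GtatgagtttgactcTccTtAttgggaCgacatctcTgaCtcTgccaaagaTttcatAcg
Camk1d: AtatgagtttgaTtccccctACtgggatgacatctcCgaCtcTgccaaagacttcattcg
Camk1g: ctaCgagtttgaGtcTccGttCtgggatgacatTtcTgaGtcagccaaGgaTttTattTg
The Pnck stretch is at chrX:73657231-73657274 in exon 8 and chrX:73657134-73657149 in exon 9. That of Camk1 is at chr6:113337193-113337236 and chr6:113336421-113336436, that of Camk1d at chr2:5313089-5313132 and chr2:5311055-5311070, and that of Camk1g at chr1:193350990-193351033 and chr1:193350338-193350353. Even here Camk1d differed from Pnck at 7 bases, Camk1 at 10 and Camk1g at 12. Over the whole of its annotated transcripts, 0 of the 1961 distinct stretches of 50 nt in Pnck occurred in any other annotated transcript, and the same held at 75 nt. Camk1 shared 137 of its 6174 stretches of 50 nt (2.22%) with Ogg1, a DNA repair gene on the opposite strand that overlaps it by 945 bases and was itself at 5.68 CPM in the KO and wild-type libraries. The sources used here do not give the strand setting of the counting, so a small part of the Camk1 count is uncertain.

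Pnck (ENSMUSG00000002012, chrX:73655994-73660117, minus strand, GRCm38) was about 2.2 times as high in every mutant group as in its own control group. Its level in untreated wild type was 93.6, 119 and 108 CPM, against 235, 232 and 238 in untreated KO. After novelty, wild type held 121, 95.4 and 106 and KO 240, 227 and 255. In the inducible line it was 71.3, 80.3 and 83.4 in control, against 173, 170 and 179 in ifKO. No mutant library of either line overlapped its controls, and the lowest mutant library of all, at 170, lay above the highest control library of all, at 121.

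**Figure D1:**
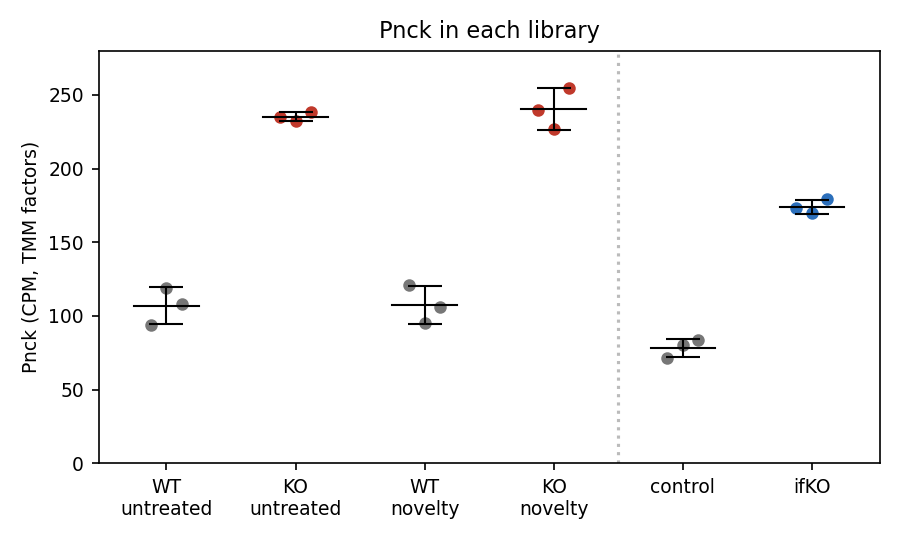
Pnck level in CPM (TMM scaling within each line) in each of the 18 libraries by group. Points are libraries, bars the mean ± SD of 3, and the dotted line parts the KO and wild-type libraries from the inducible line. The wild-type and control points lie at 71.3 to 121 CPM and the mutant points at 170 to 255.

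The means ± SD (n = 3) were 107 ± 12.7 CPM in untreated wild type against 235 ± 2.96 in untreated KO, 108 ± 12.8 against 241 ± 14.0 after novelty, and 78.3 ± 6.28 in control against 174 ± 4.75 in ifKO. The fitted log2 fold change was 1.14 ± 0.10 (SE) for KO against wild type untreated, a 2.20-fold difference (95% interval 1.91 to 2.54). It was 1.16 ± 0.10 after novelty (2.24-fold, 1.94 to 2.58) and 1.15 ± 0.05 for ifKO against control (2.22-fold, 2.05 to 2.40). Without the 2 libraries that stood apart, the difference after novelty was 1.297 ± 0.089. Larger folds were found only at lower levels: of the genes with at least the mean CPM of Pnck, none had a larger fold in any of the 3 mutant comparisons. Among 16159 genes tested in both lines, 64 passed the adjusted p threshold of 0.05 as higher in all 3 mutant comparisons, of which the untreated and the novelty comparison are from separate libraries of the same line. Pnck was 1 of 8 of these with a mean of at least 50 CPM in every group. Its place among them and its rank by fold are a description only, since the gene was chosen for this rise.

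How the Pnck difference varied between settings is given as a description, since it is built from the values that chose the gene. The genotype difference after novelty minus that in untreated mice was 0.02 ± 0.13 on the log2 scale (95% interval -0.26 to 0.31), a ratio between both folds of 0.833 to 1.24. The difference in untreated KO minus that in ifKO was -0.01 ± 0.12 (95% interval -0.27 to 0.25), a ratio of 0.83 to 1.19. Neither interval shows that the folds are equal. In bulk tissue, more RNA per cell and more cells that hold it cannot be told apart.

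The other CaMKI genes had smaller differences than Pnck in the same libraries, and for each there was a mutant comparison without overlap. Camk1 held 42.5, 46.4 and 41.9 CPM in untreated wild type against 45.6, 46.0 and 47.8 in untreated KO, which overlapped, and 36.5 ± 0.924 in control against 39.0 ± 2.07 in ifKO. Its log2 fold change was 0.09 ± 0.08 in KO untreated and 0.10 ± 0.05 in ifKO. After novelty Camk1 was at 45.0, 35.4 and 43.2 CPM in wild type and 49.4, 48.1 and 51.6 in KO, a log2 fold change of 0.27 ± 0.08 in which the libraries did not overlap. For Camk1 this was 0.16 ± 0.07 without wild-type library 2 of that comparison and 0.37 ± 0.09 without the 2 libraries that stood apart. Camk1d, the form with the most counts, was at 288, 268 and 306 CPM in untreated wild type against 306, 313 and 317 in KO, and at 304 ± 16.9 in control and 299 ± 12.4 in ifKO. Camk1g, whose product is anchored to membranes by a lipid, went the other way from Pnck: 34.8, 34.1 and 31.8 CPM in untreated wild type against 30.0, 27.6 and 27.3 in KO, and 29.7, 29.3 and 30.7 in control against 29.3, 25.6 and 28.4 in ifKO. Its libraries did not overlap in either comparison, and its log2 fold change was -0.24 ± 0.08 in KO untreated, -0.11 ± 0.06 in ifKO (-0.06 ± 0.05 without ifKO library 2) and -0.04 ± 0.08 in KO after novelty.

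The CaMKII subunit genes differed little between mutants and controls without novelty. Camk2b, for the beta subunit that tethers the holoenzyme to actin, was the member with the most counts, at 1674 ± 45.6 CPM in untreated wild type against 1710 ± 52.3 in KO, and at 1277 ± 48.3 in control and 1300 ± 51.8 in ifKO. Camk2g, for the gamma subunit, was at 235, 222 and 217 CPM in untreated wild type against 213, 198 and 207 in KO, a log2 fold change of -0.12 ± 0.06 without overlap, but at 185 ± 2.70 in control and 190 ± 6.08 in ifKO. Camk2d, for the delta subunit, fluctuated most in untreated wild type, with 76.1, 63.2 and 51.7 CPM, against 54.1, 59.2 and 55.0 in KO. Its log2 fold change was -0.18 ± 0.11, -0.03 ± 0.10 without wild-type library 1 and -0.31 ± 0.10 without wild-type library 3. Camk2a, for the alpha subunit and the source of the promoter of the Cre, was at 5086 ± 29.5 CPM in untreated wild type against 5579 ± 209 in KO (log2 fold change 0.13 ± 0.07, edgeR adjusted p = 0.627). It was at 3931 ± 181 in control and 4272 ± 40.8 in ifKO (0.12 ± 0.04, edgeR adjusted p = 0.374).

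Camk4 encodes CaMKIV, the mostly nuclear kinase that phosphorylates CREB. It was at 156, 123 and 150 CPM in untreated wild type against 172, 194 and 166 in KO, a log2 fold change of 0.31 ± 0.17, the widest error of the 10 genes, and 0.20 ± 0.19 without wild-type library 2. In the inducible line it was at 187 ± 4.36 in control and 189 ± 5.98 in ifKO. After novelty the libraries that stood apart were also its extremes, with 112 CPM in wild-type library 1 against 180 and 148 in its groupmates, and 228 in KO library 2 against 159 and 156. The log2 fold change after novelty was 0.30 ± 0.17 with them and -0.06 ± 0.11 without them.

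Of the upstream kinases, Camkk2, whose product also activates AMP-activated kinase, was at 193, 186 and 185 CPM in untreated wild type against 197 in each of the 3 KO libraries. It was at 155, 154 and 148 in control and 168, 162 and 164 in ifKO. The libraries did not overlap in either comparison, and the log2 fold changes were 0.07 ± 0.06 and 0.11 ± 0.03. Camkk1 was at 264 ± 3.05 CPM in untreated wild type against 261 ± 14.4 in KO, and at 222, 224 and 223 in control and 222, 217 and 220 in ifKO.

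Counted over the 10 genes, 1 of 10 (Pnck) passed the adjusted p threshold in KO untreated, where 1.24% of all genes passed, 1 of 10 in KO after novelty (background 1.34%) and 1 of 10 in ifKO (0.645%). These comparisons were part of the choice, and nothing is read from the counts. Over the other 9 genes the median log2 fold change was 0.03 in KO untreated (from -0.24 for Camk1g to 0.31 for Camk4), -0.02 in KO after novelty (-0.18 for Camkk1 to 0.40 for Camk2d) and 0.02 in ifKO (-0.11 for Camk1g to 0.11 for Camkk2), beside a median of 0.00 over all genes in each. The libraries of mutant and control did not overlap for 4 of the 10 genes as higher in KO untreated (background 11.6%) and for 2 as lower (9.35%), for 3 as higher after novelty (6.64%) and 1 as lower (4.56%), and for 2 as higher in ifKO (6.55%) and 2 as lower (5.48%). Pnck and Camkk2 were without overlap as higher in untreated KO and in ifKO, and Camk1g as lower in both. Pnck was the one gene of the 10 without overlap in all 3 comparisons. The share of all genes without overlap in more than 1 comparison was not counted, so nothing is read from this agreement.

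**Figure D2:**
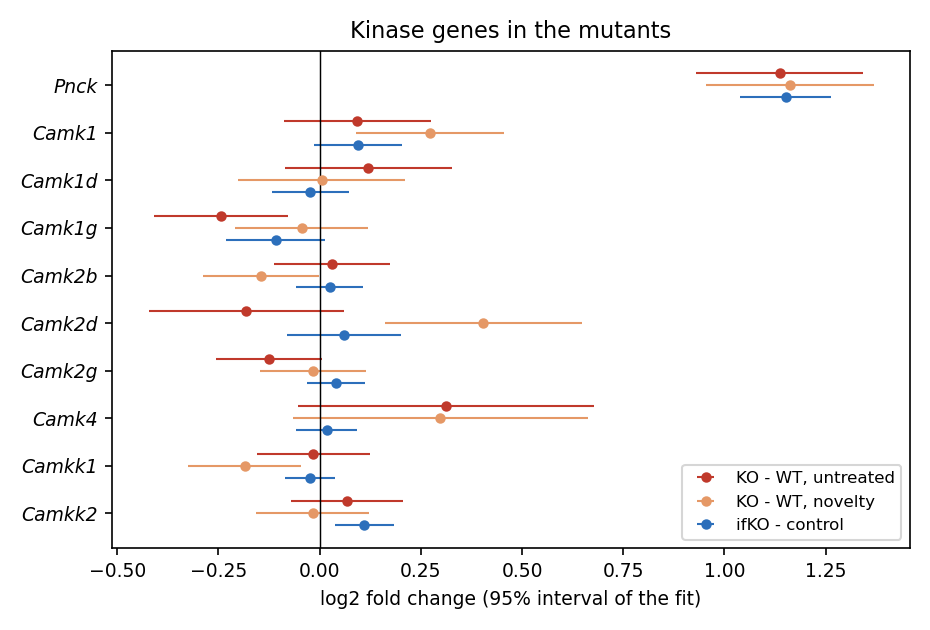
Log2 fold change of each kinase gene with the 95% interval of the edgeR fit, for KO against wild type untreated and after novelty (each 3 against 3 libraries) and ifKO against control. Pnck lies at 1.14, 1.16 and 1.15, and the other 9 genes lie between -0.24 and 0.40.

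The differences between differences were also fitted for all 10 genes. For KO untreated minus ifKO, 0 of 10 genes passed, against 0.114% of all genes. The values ran from -0.24 ± 0.15 for Camk2d, which was -0.10 without wild-type library 1, to 0.30 ± 0.21 for Camk4. For the change of the genotype difference with novelty, 0 of 10 passed and 0 of all 16392 genes did in edgeR and in DESeq2, while 3.43% of all genes had an unadjusted p under 0.05 in edgeR. The member among those was Camk2d, at 0.58 ± 0.16: its KO minus wild-type difference was -0.18 ± 0.11 untreated and 0.40 ± 0.11 after novelty. Its levels after novelty were 48.3, 48.7 and 48.9 CPM in wild type against 58.3, 64.4 and 70.4 in KO, so the wild-type libraries were lower than before novelty and the KO libraries were not.

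Pnck levels with 1 h of novelty lay within the range of those without it or close to it. The log2 fold change with novelty was 0.01 ± 0.10 in wild type (95% interval -0.20 to 0.21) and 0.03 ± 0.09 in KO (-0.17 to 0.24), and the libraries overlapped in both genotypes. None of the 10 genes passed with novelty in wild type (background 0.384%), in KO (0.110%) or averaged over both (1.35%). Deviations of same-numbered KO libraries with and without novelty correlated at 0.11 to 0.34, which does not establish pairing. With the replicate block 6 rather than 18 of all genes passed with novelty in KO, none of them one of the 10, and Pnck was at 0.03. Camkk1 had the highest log2 fold change with novelty in wild type, from 261, 267 and 263 CPM to 322, 298 and 307 without overlap (0.23 ± 0.06). In KO it went from 275, 246 and 262 to 274, 253 and 289, which overlapped (0.06 ± 0.06). Camk2d was the lowest with novelty in wild type (-0.39 ± 0.11, no overlap) and at 0.20 ± 0.11 in KO. Without untreated wild-type library 1 the Camk2d value in wild type was -0.24 ± 0.10. Camk1g was the highest in KO, from 30.0, 27.6 and 27.3 CPM to 33.9, 32.5 and 35.2 (0.26 ± 0.08, no overlap), and at 0.06 ± 0.08 in wild type. Over the 9 genes other than Pnck the median was 0.06 in wild type and 0.03 in KO. Without overlap, 1 of 10 genes was higher with novelty in wild type (background 8.30%) and 1 lower (7.70%), and in KO 2 of 10 were higher (8.60%) and 0 lower (6.35%). Without the 2 libraries that stood apart, Pnck was at -0.09 ± 0.08 with novelty in wild type and 0.07 ± 0.08 in KO, and Camk1d moved from 0.11 ± 0.10 to 0.23 ± 0.06 in wild type.

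**Figure D3:**
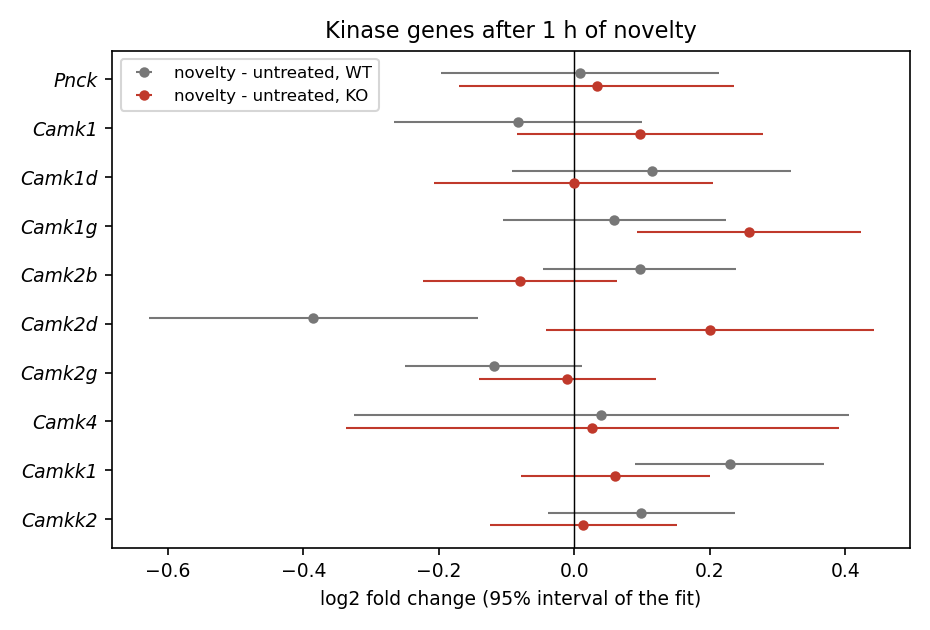
Log2 fold change of each kinase gene with 1 h of novelty, with the 95% interval of the edgeR fit, in wild type and in KO (3 against 3 libraries each). Pnck lies at 0.01 and 0.03, and Camk2d lies at -0.39 in wild type and 0.20 in KO.

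Levels of different genes were compared per kb of exon (RPKM, over the union of annotated exons). In untreated wild type the order was Camk2b at 183 RPKM, Camkk1 at 70.7, Pnck at 54.2, Camk4 at 43.9, Camk1d at 38.7, Camk2g at 35.1, Camkk2 at 17.2, Camk1g at 12.2, Camk1 at 7.29 and Camk2d at 2.83. The libraries of Pnck and Camk4 overlapped, as did those of Camk4 and Camk1d and of Camk1d and Camk2g. In untreated KO Pnck had rank 2, with 119, 118 and 121 RPKM, apart from Camk2b above it and Camkk1 below it. In the control group of the inducible line Pnck had rank 5 at 39.7 ± 3.19 and overlapped Camk1d, and in ifKO it had rank 2 at 88.3 ± 2.41. With the length of the longest transcript in place of the exon union, Pnck again had rank 2 in all 3 mutant groups, rank 3 in both wild-type groups and rank 4 in control.

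**Figure D4:**
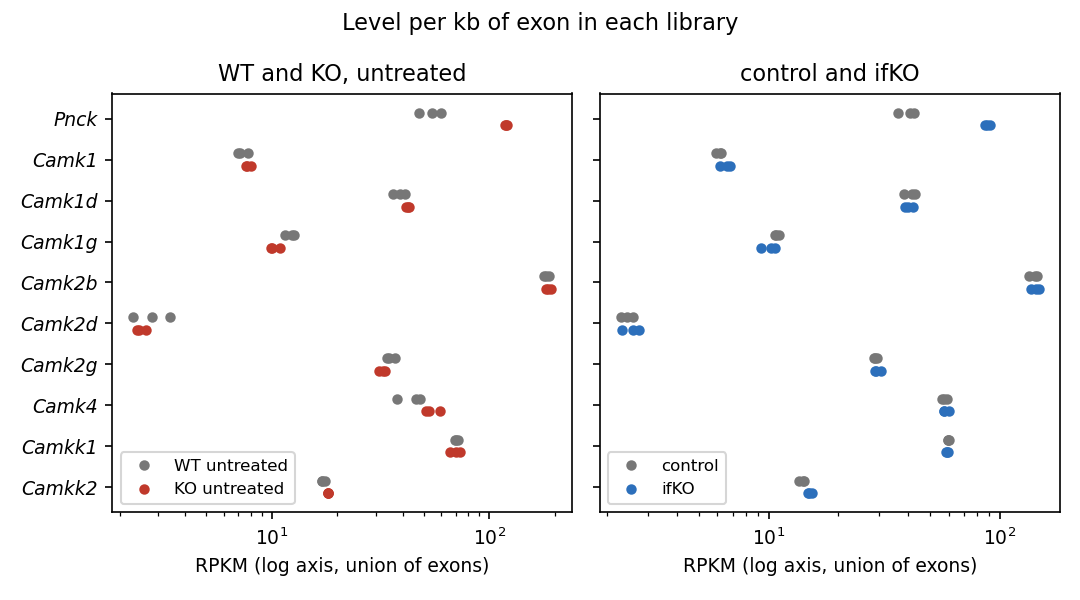
RPKM (log axis) of each kinase gene in each library, untreated wild type and KO on the left and control and ifKO on the right. Pnck moves from 54.2 to 119 RPKM between the group means on the left and from 39.7 to 88.3 on the right, while the points of the other genes lie close together.

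Within the 4 CaMKI genes, the share of Pnck in their summed RPKM was 48.2% ± 3.48 in untreated wild type against 66.5% ± 0.181 in KO (SD, n = 3). It was 47.0% ± 4.91 and 66.1% ± 2.18 after novelty, and 40.7% ± 2.52 in control and 60.8% ± 0.991 in ifKO. The summed level of the 4 genes went from 112 ± 5.61 to 179 ± 1.87 RPKM in untreated KO and from 97.6 ± 3.07 to 145 ± 2.28 in ifKO. The share was at least 59.7% in all 9 mutant libraries and at most 52.6% in all 9 wild-type and control libraries. Pnck is part of both the share and the sum, so both grow with the rise for which it was chosen. They are a description only.

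The tested genes nearest to Pnck were examined in the same mutant comparisons. Pnck lies 78.6 Mb from Kdm5c on the X chromosome, and no other annotated gene overlaps it. Among its 5 tested neighbours on either side, 0 of 10 passed in KO untreated (1.24% of all genes), KO after novelty (1.34%) or ifKO (0.645%). At these shares nothing is read from the count. In KO untreated 2 of the 10 were without overlap, beside 11.6% of all genes as higher and 9.35% as lower. These were Atp2b3 as higher (0.08 ± 0.08) and Bcap31 as lower (-0.19 ± 0.07). After novelty and in ifKO 0 of the 10 were without overlap. Their log2 fold changes ran from -0.32 for Dusp9, a phosphatase of MAP kinases, to 0.28 for Srpk3 in KO untreated, from -0.53 to 0.39 after novelty, and from -0.30 to 0.09 in ifKO. Dusp9 set the low end in each and was near the floor, with group means of 0.25 to 0.68 CPM and SE of 0.27 to 0.51. Slc6a8, the creatine transporter gene that follows Pnck, was at -0.11 ± 0.07 in KO untreated and -0.02 ± 0.04 in ifKO.

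**Figure D5:**
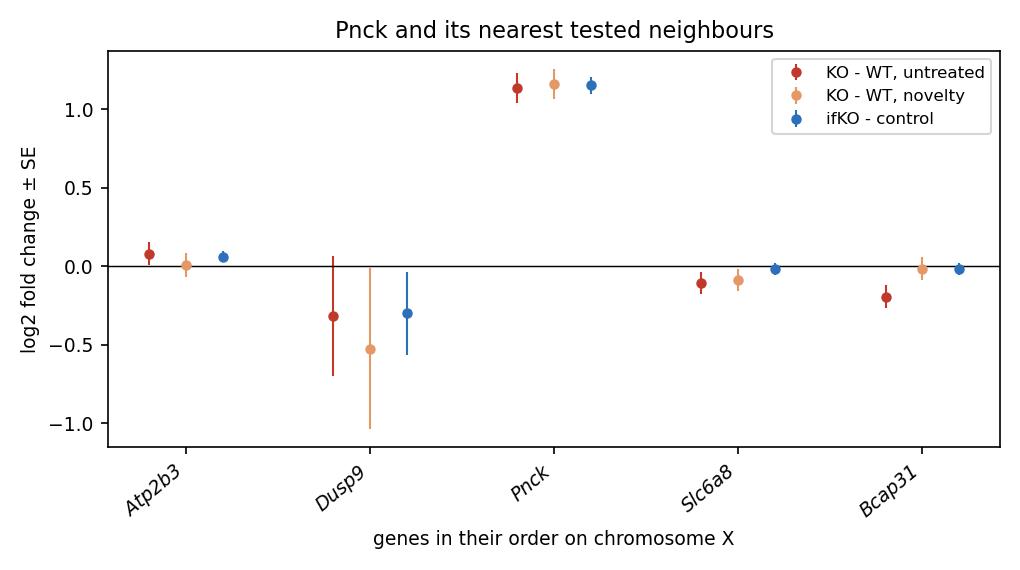
Log2 fold change ± SE of Pnck and of the nearest 2 tested genes on either side of it (Atp2b3 and Dusp9, Slc6a8 and Bcap31), in their order on the X chromosome, for the 3 mutant comparisons. Pnck lies at 1.14 to 1.16 and these neighbours between -0.53 (Dusp9) and 0.08 (Atp2b3). Dusp9 is near the floor, with group means of 0.25 to 0.68 CPM.

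Other genes of the pathway were counted in lists. Of all genes tested, 1.24% passed in KO untreated, 1.34% in KO after novelty and 0.645% in ifKO. With novelty 0.384% passed in wild type, 0.110% in KO and 1.35% averaged over both. For KO untreated minus ifKO the share was 0.114%, and in the interaction 0. With shares this low and lists of 9 to 27 genes, nothing is read from a count of 0. Of the 9 genes for calmodulin and the proteins that buffer it, such as neurogranin (Nrgn), 0 passed in any comparison, and their median log2 fold change was 0.00 in KO untreated and -0.03 in ifKO. Of 12 genes for calcium entry and release, 0 passed in any comparison. Their median was 0.10 in KO untreated, with 11 of 12 above 0, and -0.05 in KO after novelty, with 3 of 12 above 0, beside a median of 0.00 over all genes. In ifKO it was 0.02, with 9 of 12 above 0. Of the 27 targets and substrates below, 20 were above 0 in KO untreated, 9 after novelty and 16 in ifKO. The untreated pools varied and the share of all genes above 0 was not counted, so nothing is read from these signs. Of the inhibitors and phosphatases that oppose these kinases, 0 of 11 passed in the KO and wild-type fit and 0 of 12 in ifKO. Of 27 targets and substrates, 0 passed in the 3 mutant comparisons, and Srf, a transcription factor of activity-regulated genes, rose with novelty averaged over both genotypes by 0.24 ± 0.05 (edgeR adjusted p = 0.0478).

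Among 17 tested kinases of the wider calmodulin-dependent group, 1 rose in KO untreated and 1 in KO after novelty, beside 1.24% and 1.34% of all genes, both times Phkg1, a catalytic subunit of phosphorylase kinase, which carries calmodulin as a subunit. Phkg1 held 29.9, 32.9 and 29.1 CPM in untreated wild type against 37.8, 40.2 and 38.8 in KO, a log2 fold change of 0.34 ± 0.07 (edgeR adjusted p = 0.0200). It was 0.35 ± 0.07 after novelty (adjusted p = 0.0160). In ifKO it was 0.03 ± 0.04 (edgeR adjusted p = 0.944), and the difference between KO untreated and ifKO was 0.31 ± 0.08 (edgeR adjusted p = 0.266), so the mutants were not shown to differ. The median of the list was 0.04 in KO untreated and 0.01 in ifKO.

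The genes whose levels went most nearly with Pnck over the 18 libraries were sought by Pearson correlation of log2 CPM after subtracting each flowcell's mean, among 14551 genes, as a description without a test. They were Dnah1 (r = 0.985), a dynein heavy chain of motile cilia, Vwa3b (0.981), Gaa (0.977), the lysosomal alpha-glucosidase, Cacng6 (0.976), a gamma subunit of calcium channels, and Klk10 (0.971). The libraries fall into mutants and controls, so any gene that differs steadily between them scores high. Their log2 fold changes in KO untreated and in ifKO were 2.17 and 1.99 for Dnah1, 1.23 and 1.27 for Vwa3b, 0.57 and 0.45 for Gaa, 3.27 and 3.42 for Cacng6, and 3.43 and 2.48 for Klk10. Over the 12 KO and wild-type libraries alone, Gaa (r = 0.986) was the 1 of these 5 genes that was again among the leading 5. Within the kinase family the highest correlation with Pnck was that of Camk1 (r = 0.733) and the lowest that of Camk1g (r = -0.509).

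Markers of cell types were summed by list and compared in the same way. In untreated KO the summed levels of 6 of 11 marker lists did not overlap those of untreated wild type. Among all single genes tested, 11.6% were without overlap as higher there and 9.35% as lower. Those shares are of genes and not of summed lists. Higher were 5 astrocyte genes (1456 to 1541 CPM in wild type, 1681 to 1720 in KO), 5 of microglia (336 to 344, then 349 to 376), 5 of CA2 and CA3 (237 to 274, then 278 to 301) and 6 of choroid plexus (37.0 to 44.6, then 57.8 to 618). Lower were 5 oligodendrocyte genes (3145 to 3412 CPM in wild type, 2413 to 2712 in KO) and 6 of inhibitory neurons (654 to 735, then 578 to 646). After novelty 1 of 11 lists did not overlap, astrocytes at 1409 to 1519 CPM in wild type and 1578 to 1760 in KO (single genes 6.64% higher, 4.56% lower). In the inducible line it was also 1 of 11 (single genes 6.55% higher, 5.48% lower), inhibitory neurons at 746 to 759 CPM in control and 717 to 730 in ifKO. Astrocytes there were at 1338 to 1438 and 1397 to 1418. With novelty, 3 of 11 lists did not overlap in wild type (excitatory neurons higher, oligodendrocytes and vessels lower), beside 8.30% of single genes as higher and 7.70% as lower. In KO it was 1 of 11 (microglia lower), beside 8.60% and 6.35%. Nothing is read from these counts of lists. No gene of any of the 11 lists was at 0 in a whole group. Pnck was 2.20-fold higher in untreated KO, with 6 of the 11 lists without overlap. It was 2.24-fold higher in KO after novelty and 2.22-fold higher in ifKO, with 1 of the 11 lists without overlap in each. Overlap of 3 against 3 libraries does not show equal cell composition. The part of these markers in the kinase values was not tested. Choroid plexus markers were high in untreated KO library 2 (618 CPM) and control library 1 (393 CPM), and 33.8 to 78.1 CPM in the other libraries. Pnck was at 232 and 71.3 CPM in those 2 libraries, the lowest value of each group. With 1 such library in each of these groups, nothing is read from this.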

How the data were processed

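Raw counts per gene were deposited in 18 files, without normalization by the authors. The submitters' processing notes name STAR 2.5.0c, SAMtools 1.3, HTSeq 0.6.1, DESeq2 and build GRCm38, without their roles. The libraries were stranded, per the labels' protocols, while the sources used here give neither the strand setting of the counting nor the annotation release. The protocol speaks of cultures, and the labels of hippocampal tissue. Each inducible library has a record for either read, so 24 records gave 18 libraries. Reads in no feature (14.7 to 17.2%) were left out. Symbols came from GENCODE M21 (46574 of 47069 IDs).

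Counts were scaled by TMM, filtered with filterByExpr (minimum count 10) and tested with edgeR 4.0.16 (R 4.3.3, quasi-likelihood, Benjamini-Hochberg over all genes, threshold 0.05): 12 KO and wild-type libraries together (16392 genes), 6 of the inducible line (17367), and 18 for KO minus ifKO (17508). CPM use these factors, and RPKM divide CPM by exon length. The fits were tested on simulated data. Replicate numbers are from the titles, and deviations from the group means of same-numbered libraries correlated above 0.1 in all 3 pairs for KO with and without novelty (0.11 to 0.34) and in no other comparison. The 10 genes and all lists were chosen with earlier results of these data known. Named genes were these 10, Kdm5c, Camk2a, called genes of each list, 5 neighbours on either side of Pnck and the 5 genes most like it. Some genes under this rule are not reported here. Egr1 stands for the immediate early genes. The alternatives were other filters, RLE factors, DESeq2 1.42.0, offsets for GC content and length, a replicate block, fits of only the groups compared, libraries left out, and another length.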

Additional observations from a re-analysis of the deposited data

How the results depend on the processing

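Under every alternative run, Pnck kept its direction in the 3 mutant comparisons, with log2 fold changes of 1.06 to 1.21 in KO untreated and 1.07 to 1.297 in KO after novelty (14 alternatives each) and 1.09 to 1.20 in ifKO (12). These ranges and the calls of Pnck are a description only, since it was chosen for its rise in these same libraries. The count of kinase genes that passed in KO after novelty was 2 in place of 1 in 4 settings: Camk2d joined with no low-count filter (0.39, adjusted p = 0.0164) and with DESeq2 (0.40, adjusted p = 0.0494), Camkk1 with offsets for GC content and length (-0.20, edgeR adjusted p = 0.0356), and Camk1 without library 1 of wild type and library 2 of KO after novelty (0.37, edgeR adjusted p = 0.0340). With novelty in wild type it was 1 in place of 0 in 3 settings: Camk2d with no filter (-0.38, edgeR adjusted p = 0.0304), Camkk1 with the offsets (0.23, edgeR adjusted p = 0.0150) and Camk1d without those 2 libraries (0.23, edgeR adjusted p = 0.0441). Averaged over genotypes it was 1 in place of 0, Camkk1, with the offsets (adjusted p = 0.0271, edgeR) and without those 2 libraries (adjusted p = 0.0489, edgeR). The cause was not tested. Leaving out any 1 library gave 1 to 1 kinase genes in each mutant comparison and 0 to 0 in the others.

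Counts over all genes moved more. From 204 in KO untreated they ran from 121 (without KO untreated library 1) to 415 (without the 2 novelty libraries), and from 219 in KO after novelty from 104 (only the groups compared) to 705 (without those 2). With novelty they ran from 63 in wild type to 4 and 451, from 18 in KO to 1 and 101, and from 222 averaged to 91 and 676. The interaction went from 0 to 331 without the 2 novelty libraries, ifKO from 112 to 56 and 398, and KO minus ifKO from 20 to 18 and 83. Same-numbered libraries correlated at -0.36 to -0.12 between untreated wild type and KO and -0.05 to 0.54 between those after novelty. They correlated at -0.48 to 0.05 between wild type with and without novelty and -0.35 to 0.08 between control and ifKO. The numbers did not pair these groups. Between KO with and without novelty the correlations were 0.11 to 0.34. There not every library correlated best with its own number, so pairing was not established. With the replicate block Pnck was at 1.14, 1.16 and 1.15, 1 kinase gene passed in each mutant comparison and 0 in the others, and 173, 202 and 97 of all genes passed in KO untreated, KO after novelty and ifKO, 33 with novelty in wild type, 6 in KO and 160 averaged. The block changed no call of a kinase gene. With 3 pools a group, small shifts in the kinase genes of the size of Camkk2 in ifKO (0.11 ± 0.03, edgeR adjusted p = 0.339) could not be called.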
